A study of Mus musculus with 8 samples.

Results

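The genes described here encode the signalling machinery of the B cell receptor: its signal-transducing subunits, the kinases, adaptors and lipid enzymes that relay the signal, and the phosphatases, ubiquitin ligases and adaptors that restrain it. The set was a list of 33 gene symbols chosen by function, and all 33 were found among the 24746 genes of the count table. The material was bone marrow B cells isolated by flow sorting, and the mice were 10 to 12 weeks old. The 4 control mice were miR-15a/b+/+ Vav-Cre and the 4 mice called miR-15 dKO (below dKO) were miR-15a/bfl/fl Vav-Cre, so in the dKO mice both miR-15/16 clusters were flanked by loxP sites and in the controls they were wild-type. Both genotypes carried the Vav-Cre transgene, whose Vav1 regulatory elements are active throughout the blood lineage, so the deletion is not restricted to B cells. cDNA was made by SMART-seq, and the values are read counts per gene, given here as CPM (reads of a gene scaled to a common, TMM-adjusted library size).

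When antigen clusters the B cell receptor, Src-family kinases phosphorylate the tails of CD79A and CD79B, which recruit the kinase SYK. SYK phosphorylates the adaptor BLNK, on which BTK and phospholipase C gamma 2 assemble, while PI3 kinase builds the membrane lipid that holds BTK and AKT in place. The lipase product diacylglycerol then opens the routes through protein kinase C to NF-kB and through RASGRP3 to RAS. The phosphatases SHP-1 and SHIP-1, the adaptor DOK3 and the CBL ubiquitin ligases limit the signal. B-1a cells, a self-renewing innate-like B cell type, are known for a receptor signal that is strongly restrained.

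The microRNAs targeted in the dKO mice act through a shared seed, so their sequences are shown with those of the sites that match them. The mature forms from RefSeq (GRCm38.p6) follow, with the seed, bases 2 to 8, in capitals.
mmu-miR-15a-5p: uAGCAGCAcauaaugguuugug
mmu-miR-15b-5p: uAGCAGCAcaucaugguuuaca
mmu-miR-16-5p: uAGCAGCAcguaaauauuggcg
All 3 carry the seed AGCAGCA. Mir15a (chr14:61632075-61632096, minus strand) and Mir16-1 (chr14:61631936-61631957, minus strand) lie in one cluster, and Mir15b (chr3:69009775-69009796, plus strand) and Mir16-2 (chr3:69009918-69009939, plus strand) in the other.

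The DNA letters of a match to bases 2 to 8, TGCTGCT, were searched on the sense strand of the longest annotated 3′ UTR of each gene (GENCODE M21, GRCm38, another build than the authors' GRCm39). Of the 33 receptor signalling genes 9 held a match, which is 27.3%, and of the 10668 tested genes with an annotated 3′ UTR 24.8% did. The sites of the PI3 kinase subunit gene Pik3r1, the RAS exchange factor gene Sos1, the Src-family kinase gene Blk, the ubiquitin ligase gene Cbl and Rasgrp3 are shown with their surroundings, since 3 of these genes are among those that differed most between genotypes. Capitals mark the match.
Pik3r1: attggctgcccaggaTGCTGCTatttaaga
Cbl: agtcactgtcaccttTGCTGCTaattactt
Sos1, first site: aagcatgcttactaaTGCTGCTccgtatga
Sos1, second site: ttattcctggttgtcTGCTGCTgggtggtt
Blk, first site: ttggccaagttacttTGCTGCTctgtgtcg
Blk, second site: aagtgcctccctgtcTGCTGCTtcagaact
Rasgrp3: aggcagtgaaccctcTGCTGCTgattggct
In GRCm38 the matches lie at chr13:101681085-101681091 (Pik3r1), chr9:44145835-44145841 (Cbl), chr17:80396294-80396300 and chr17:80395036-80395042 (Sos1) and chr14:63373147-63373153 and chr14:63372940-63372946 (Blk), all on the minus strand, and at chr17:75527349-75527355 on the plus strand (Rasgrp3). The sites of Pik3r1 and Cbl are followed by an A, the letter that extends a seed match in the most effective class of sites, and the others are not. The remaining genes with a match were Grb2, Inpp5d, Vav2 and Malt1. A match is a description of the letters and does not show that a microRNA acts there.

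Depth was 25565090 to 34954230 counts per library, where 3 counts, the limit for a gene without reads by counting error alone, equal 0.0854 to 0.111 CPM. The receptor signalling genes together took 1.98% to 2.66% of the counts of a library, and all 33 passed the filter on low counts. The sample labels name B1a B cells, while the series description names pro-B cells. Of 15 B-1a markers all reached a mean of 1 CPM, whereas of 17 pro-B markers 7 did. These 7 were Vpreb1, Vpreb3, Il7r, Flt3, Lef1, Myb and Ebf1, while Rag1 and Rag2, the recombinase genes of developing B cells, had counts in 1 library. Vpreb3 was at 39.4 to 227.7 CPM in the controls and at 3.53 to 33.1 CPM in the dKO libraries, without overlap. Summed pro-B markers lay between 97.0 and 316.9 CPM in the controls and between 83.4 and 101.0 CPM in the dKO libraries. The mean log2 CPM of 12 follicular B-2 markers, genes of conventional recirculating B cells, was 7.47 in control 2 and 7.53 in control 4 and lay between 5.70 and 6.28 in the other 6 libraries. These 12 markers all reached a mean of 1 CPM too. So did 14 of 16 T cell, 10 of 13 NK cell and 8 of 10 plasma cell markers. Of 16 myeloid markers 9 did, and of 12 listed erythroid markers 1. Reaching that level therefore does not single out B-1a cells. Summed T cell markers lay between 123.7 and 337.6 CPM in the controls and between 186.0 and 350.5 CPM in the dKO libraries, and summed myeloid markers between 535.2 and 5228 and between 492.8 and 2176 CPM. NK cell markers summed to 28.04 to 245.5 CPM (controls) and 109.6 to 257.9 CPM (dKO), plasma cell markers to 2145 to 3300 and 3370 to 4020 CPM, and erythroid markers to at most 9.20 CPM in any library. Most of the plasma cell sum was Mzb1, at 1893 to 2942 CPM in the controls and 3101 to 3734 CPM in the dKO libraries. The mean log2 CPM of the plasma cell markers overlapped between groups (3.80 to 4.30 in the controls, 4.02 to 4.38 in the dKO libraries). The part of these cells in genes they share with B cells, such as Fyn, Vav1 and Ptprc, was not tested. In such bulk samples, fewer cells of a type and less RNA per cell cannot be told apart. Dleu2, whose transcript spans the Mir15a cluster, was at 12.7, 25.0, 13.4 and 20.7 CPM in controls 1 to 4 and at 92.1, 111.4, 72.2 and 85.4 CPM in dKO 1 to 4 (2.33 ± 0.24 on the log2 scale, SE, adjusted p = 0.0065 by edgeR). It does not show whether the microRNAs themselves were removed.

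The receptor's own subunits stood far above the rest of the pathway. Relative to exon length, Cd79a was at 9455 ± 1166 CPM per kilobase in the controls and 9017 ± 517 in the dKO libraries (SD, n = 4 each), and Cd79b at 5177 ± 648 and 4724 ± 323. Every library's Cd79a value per kilobase was above every Cd79b value, and the lowest Cd79b value, 4417, was far above the highest value of the next gene, 125.4 CPM per kilobase for Cd81. Cd81, which encodes a tetraspanin of the B cell surface, and the scaffold gene Bank1 came next with ranges that overlapped, 94.5 to 125.4 and 87.6 to 108.0 CPM per kilobase. Further down the order each gene's range overlapped that of the next, except between the last pair, Pik3ap1 and Itpkb. Kinases of the receptor-proximal step lay in the middle of the order, with means over the 8 libraries of 50.5 for Blk, 44.5 for Lyn, 19.2 for Btk and 15.3 for Syk, while Fyn, the Src-family kinase that T cells also use, had 4.59 CPM per kilobase. Sos1 (0.919), Cbl (0.650), Pik3ap1 (0.624) and Itpkb (0.118) had the lowest levels. Exon lengths came from GENCODE M21 and may differ from those the authors counted over.

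**Figure D1:**
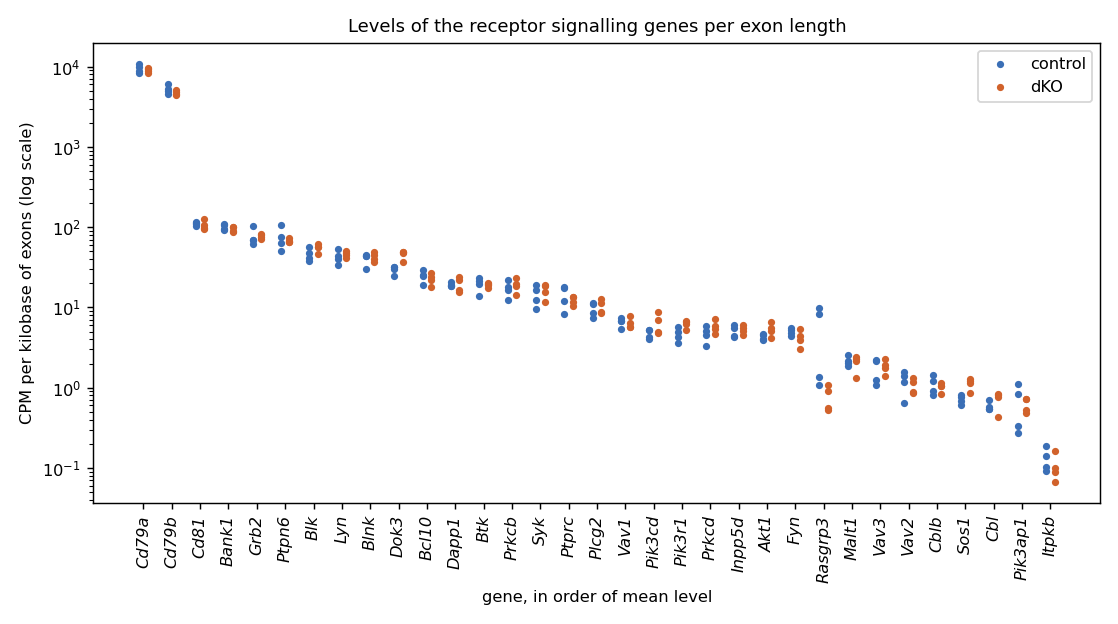
Levels of the 33 receptor signalling genes in CPM per kilobase of exons, on a log axis, in order of their mean over the libraries. Each point is 1 library (blue, 4 controls; orange, 4 dKO). Cd79a and Cd79b lie above 4417 in every library, and Cd81, the next gene, lies between 94.5 and 125.4.

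Between genotypes the receptor signalling genes differed little. With edgeR's quasi-likelihood test and Benjamini-Hochberg adjustment over 11363 genes, none of the 33 reached an adjusted p under 0.05, where 0.088% of all genes tested did. Of the 33 genes 5 had an unadjusted p under 0.05, which is 15.2% against 10.8% of all genes tested, 4 of them higher in the dKO libraries (5.98% of all genes were) and 1 lower (4.84% of all genes were). The groups did not overlap for 3 of the 33 genes, Dok3 and Sos1 above and Rasgrp3 below, which is 9.09% against 6.96% of all genes tested. The log2 fold changes had a median of 0.017 beside −0.016 over all genes tested, with 17 positive and 16 negative, and 30 of the 33 were smaller than 0.5 in size (90.9%, beside 79.5% of all genes tested). For 30 genes the 95% interval of the difference lay within a 2-fold change either way, and for 17 within 1.5-fold. The intervals of Itpkb, Rasgrp3 and Sos1 reached beyond 2-fold. DESeq2 called 2 of the 33 genes, Dok3 higher (adjusted p = 0.021) and Rasgrp3 lower (0.023), where it called 2.73% of all genes, and limma voom with quality weights called Dok3 (0.025), where it called 2.26% of all genes.

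**Figure D2:**
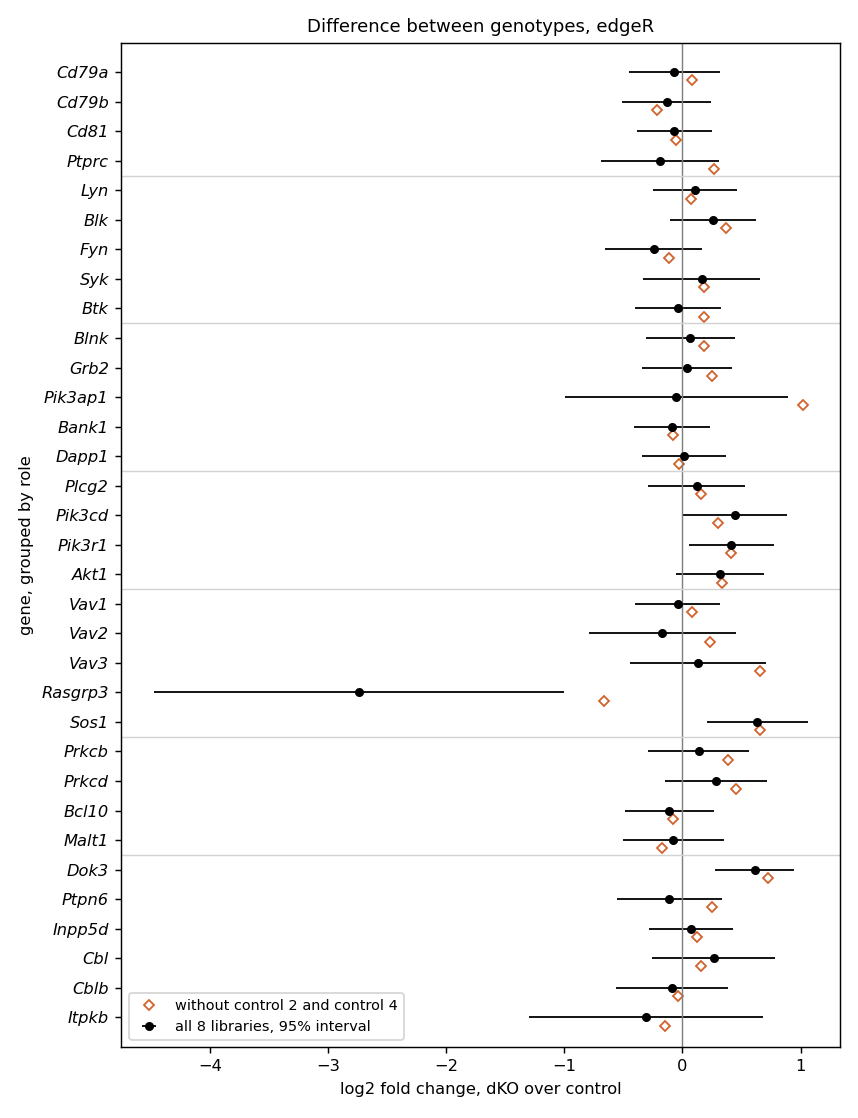
Log2 fold change of each receptor signalling gene, dKO over control, grouped by role. Black points are edgeR estimates from all 8 libraries with their 95% intervals, and open diamonds are estimates without control 2 and control 4. Most intervals span 0. Rasgrp3 lies at −2.74 with all libraries and at −0.66 without control 2 and control 4.

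The receptor subunits and co-receptor genes showed no difference that passed the test, and all 4 estimates were negative and small. Cd79a was at 11983, 14306, 12928 and 15884 CPM in controls 1 to 4 and at 13845, 12144, 13574 and 12987 CPM in dKO 1 to 4. The dKO values lay inside the range of the controls, and the log2 fold change was −0.068 ± 0.18 (SE, 95% interval −0.46 to 0.32, edgeR adjusted p = 0.94). Cd79b was at 8656, 6446, 7096 and 7433 CPM in the controls and at 7352, 6893, 6473 and 6321 CPM in the dKO libraries. The groups overlapped, with control 1 highest (log2 fold change −0.13 ± 0.17, SE, interval −0.51 to 0.25, adjusted p = 0.85). Cd81 was at 319.4 ± 13.9 against 304.6 ± 39.8 CPM (control against dKO, SD, n = 4 each). Ptprc, which encodes the phosphatase CD45 that keeps Src-family kinases ready to act and is shared by all white blood cells, had the smallest p of this role. It was at 151.8, 329.3, 221.3 and 317.9 CPM in the controls and at 215.5, 190.5, 244.1 and 245.3 CPM in the dKO libraries, so that all dKO values fell between control 1 and control 4 (−0.19 ± 0.23, adjusted p = 0.84).

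Among the tyrosine kinases, which start the cascade, no gene passed and the estimates went both ways. Syk was at 88.9, 155.4, 177.8 and 117.4 CPM in the controls and at 179.4, 145.3, 170.6 and 108.6 CPM in the dKO libraries. Each group spanned nearly the same range, and the log2 fold change was 0.16 ± 0.23 (SE, interval −0.34 to 0.66, edgeR adjusted p = 0.87). Btk, the kinase that activates phospholipase C gamma 2, was at 43.3, 73.2, 62.0 and 67.0 CPM in the controls and at 59.2, 62.8, 61.4 and 55.4 CPM in the dKO libraries. The dKO values lay close together inside the controls' range (−0.040 ± 0.17, interval −0.40 to 0.32, adjusted p = 0.97). Blk had the smallest p of the kinases, with 129.6, 154.2, 101.0 and 111.8 CPM in the controls and 152.1, 152.9, 165.0 and 124.1 CPM in the dKO libraries. Control 2 lay above 3 of the 4 dKO libraries (0.26 ± 0.16, adjusted p = 0.64). Lyn, which both starts and restrains the signal, was at 174.2 ± 33.5 against 187.9 ± 16.2 CPM, and Fyn at 21.7 ± 2.24 against 18.3 ± 4.33 CPM (control against dKO, SD, n = 4 each).

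Adaptor genes were the role with the smallest estimates, between −0.088 and 0.067 on the log2 scale. Blnk, the scaffold of the signalling complex, was at 177.8, 262.6, 272.4 and 259.8 CPM in the controls and at 270.5, 290.2, 220.1 and 237.8 CPM in the dKO libraries. Control 1 stood apart below the other 7 libraries (log2 fold change 0.067 ± 0.17, SE, interval −0.31 to 0.44, edgeR adjusted p = 0.94). Bank1, which links the receptor kinases to calcium release, had the smallest p of the adaptors. It was at 690.2, 714.3, 808.3 and 801.4 CPM in the controls and at 760.0, 751.8, 668.0 and 655.8 CPM in the dKO libraries, with the groups overlapping (−0.088 ± 0.15, adjusted p = 0.89). Grb2, which brings SOS proteins to the membrane, was at 218.9 ± 53.5 against 224.8 ± 14.9 CPM, and Dapp1, which reads the lipid made by PI3 kinase, at 79.0 ± 4.02 against 80.0 ± 17.002 CPM (control against dKO, SD, n = 4 each). Pik3ap1, the adaptor BCAP that recruits PI3 kinase, had low and uneven levels, with 1.86, 4.65, 1.51 and 6.13 CPM in the controls and 4.07, 3.97, 2.96 and 2.69 CPM in the dKO libraries. The dKO values lay between the low pair of control 1 and control 3 and the high pair of control 2 and control 4, and the log2 fold change was −0.050 ± 0.43 (adjusted p = 0.98) with all libraries and 1.02 ± 0.38 (adjusted p = 0.27) without control 2 and control 4.

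The phospholipase and lipid kinase genes all had positive estimates, none past the threshold. Pik3r1, the regulatory subunit p85 alpha that stabilises the catalytic subunits, was at 50.4, 57.5, 43.6 and 36.0 CPM in the controls and at 68.7, 65.7, 62.0 and 53.4 CPM in the dKO libraries. Only control 2 reached into the dKO range, above dKO 4, and the log2 fold change was 0.41 ± 0.17 (SE, interval 0.05 to 0.77, edgeR adjusted p = 0.38). Pik3cd, the catalytic subunit p110 delta that predominates in B cells, was at 32.5, 27.1, 32.6 and 25.6 CPM in the controls and at 44.0, 30.2, 54.7 and 31.2 CPM in the dKO libraries. Libraries dKO 1 and dKO 3 were high, while dKO 2 and dKO 4 lay within the controls' range (0.44 ± 0.20, interval 0.00 to 0.88, adjusted p = 0.46). Plcg2, the lipase that releases calcium and diacylglycerol signals, was at 31.3, 47.1, 49.0 and 36.7 CPM in the controls and at 48.8, 38.1, 54.6 and 37.1 CPM in the dKO libraries, with the groups interleaved (0.12 ± 0.19, interval −0.29 to 0.53, adjusted p = 0.88). Akt1, the kinase downstream of PI3 kinase, was at 17.5 ± 1.44 against 21.8 ± 4.10 CPM (control against dKO, SD, n = 4 each, 0.32 ± 0.17, adjusted p = 0.56).

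The exchange factors held the highest and the lowest estimate of all 33 genes. Sos1, which loads RAS with GTP after recruitment by GRB2, was at 6.52, 8.18, 8.52 and 7.33 CPM in the controls and at 12.7, 12.0, 13.7 and 8.99 CPM in the dKO libraries. All 4 dKO libraries were above all controls, dKO 4 narrowly, and the log2 fold change was 0.63 ± 0.20 (SE, interval 0.20 to 1.06, edgeR adjusted p = 0.23). Without control 2 and control 4 it was 0.66 ± 0.25 (adjusted p = 0.28). Rasgrp3, the diacylglycerol-binding RAS exchange factor of B cells, was at 7.84, 56.7, 6.26 and 47.9 CPM in the controls and at 3.22, 5.31, 3.06 and 6.23 CPM in the dKO libraries. The dKO values all lay below the controls, but control 3 was only just above dKO 4, and control 2 and control 4 were far above every other library (−2.74 ± 0.76, interval −4.47 to −1.004, adjusted p = 0.22).

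The same control 2 and control 4 had the highest follicular B-2 markers. Without both, the estimate for Rasgrp3 was −0.66 ± 0.34 (SE, adjusted p = 0.40 by edgeR). Without control 2 alone it was −2.22 and without control 4 alone −2.41. Since these are the libraries in which Rasgrp3 itself was high, a smaller difference without them follows from leaving them out. The part of follicular B-2 cells in the difference was not tested. Of the VAV exchange factors, which activate RAC, none had an unadjusted p under 0.05. Vav1 was at 24.3 ± 3.21 against 23.6 ± 3.59 CPM, Vav2 at 8.25 ± 2.82 against 7.33 ± 1.58 CPM and Vav3 at 10.1 ± 3.56 against 11.01 ± 2.08 CPM (control against dKO, SD, n = 4 each). Vav3 had a log2 fold change of 0.13 ± 0.26 with all libraries and 0.65 ± 0.25 (SE, adjusted p = 0.28) without control 2 and control 4.

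**Figure D3:**
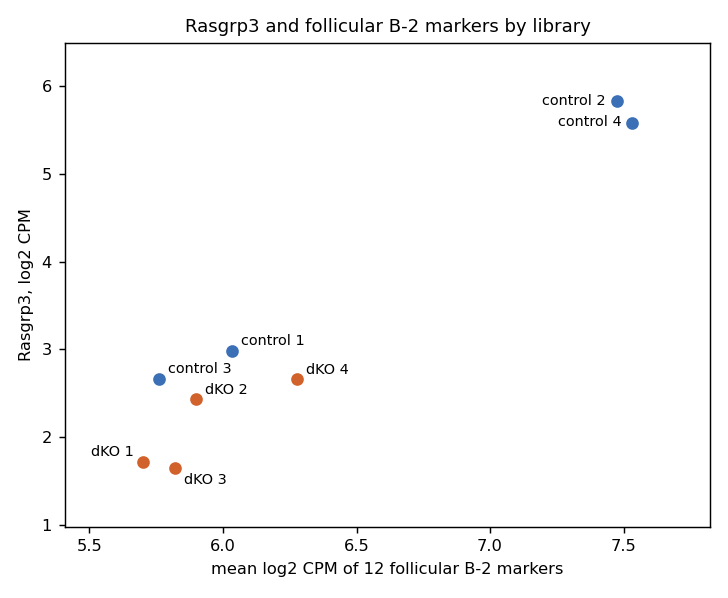
Rasgrp3 (log2 CPM) against the mean log2 CPM of 12 follicular B-2 markers, 1 point per library (blue, control; orange, dKO). Control 2 and control 4, with marker means of 7.47 and 7.53, stand apart in both measures, and the other 6 libraries have marker means of 5.70 to 6.28.

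In the protein kinase C and NF-kB relay no gene passed. Prkcd, a diacylglycerol-activated kinase that B cells need for tolerance, had the smallest p of this role. It was at 18.4, 32.8, 28.3 and 25.4 CPM in the controls and at 32.5, 29.7, 39.7 and 25.9 CPM in the dKO libraries, with control 1 lowest and dKO 3 highest (log2 fold change 0.28 ± 0.20, SE, edgeR adjusted p = 0.68). Prkcb, the protein kinase C that B cells need to activate NF-kB, was at 131.7 ± 29.2 against 145.0 ± 27.4 CPM. Bcl10 was at 111.7 ± 18.7 against 103.5 ± 17.1 CPM and Malt1, its partner with protease activity, at 38.9 ± 5.69 against 36.9 ± 8.79 CPM (control against dKO, SD, n = 4 each).

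Of the inhibitors, Dok3 lay higher in all dKO libraries without passing the threshold, and none of the others had an unadjusted p under 0.05. Dok3, an adaptor that binds SHIP-1 and GRB2 and dampens calcium signalling in B cells, had the smallest p of all 33 genes. It was at 74.6, 78.9, 60.5 and 78.7 CPM in the controls and at 120.5, 119.0, 117.5 and 89.8 CPM in the dKO libraries. Every dKO library was above every control, dKO 4 the closest, a 1.53-fold difference (log2 fold change 0.61 ± 0.15, SE, interval 0.28 to 0.94, edgeR adjusted p = 0.14). It was 0.73 ± 0.18 (adjusted p = 0.12) without control 2 and control 4. Its 3′ UTR of 187 bases held no seed match.

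Macrophages also express Dok3. Summed myeloid markers, of which the lysozyme gene Lyz2 made up 5041 of 5228 CPM in control 4, were at 1048, 2176, 492.8 and 1079 CPM in dKO 1 to 4 and at 2999, 535.2, 1668 and 5228 CPM in controls 1 to 4. The mean log2 CPM of the B-1a markers was higher in the dKO libraries (6.25 to 6.48) than in the controls (4.999 to 5.90). Their summed level overlapped between groups, at 6120, 1221, 5560 and 2063 CPM in controls 1 to 4 and at 4826, 4013, 6068 and 7005 CPM in dKO 1 to 4. The part of myeloid and of B-1a cells in the Dok3 difference was not tested. Ptpn6, the gene of SHP-1, was at 206.4 ± 64.2 against 191.2 ± 11.5 CPM and Inpp5d, the gene of SHIP-1, at 38.3 ± 6.53 against 40.4 ± 5.19 CPM (control against dKO, SD, n = 4 each). Cbl was at 7.29 ± 0.88 against 8.75 ± 2.33 CPM and Cblb at 11.4 ± 2.97 against 10.7 ± 1.34 CPM. Itpkb, whose product turns over the calcium messenger IP3, was barely expressed, at 1.36 ± 0.45 against 1.10 ± 0.43 CPM.

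**Figure D4:**
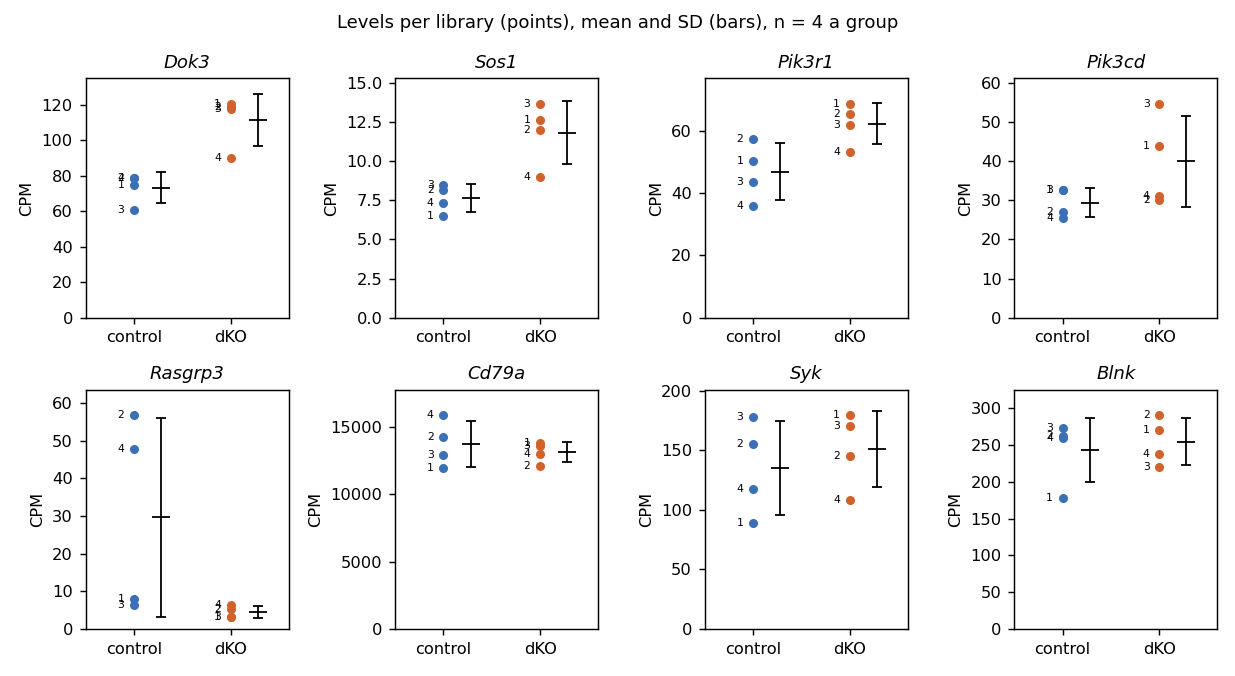
CPM per library for 8 receptor signalling genes, with the replicate number beside each point and the mean ± SD (n = 4) at the right of each group. Dok3 and Sos1 are higher in all 4 dKO libraries than in any control, Rasgrp3 is high in control 2 and control 4, and Cd79a, Syk and Blnk overlap between groups.

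Libraries of the same genotype also differed from each other. Control 1 had the lowest value of the 8 libraries for 15 of the 33 genes (45.5%), where it was lowest for 21.3% of all genes tested, and Ptprc, Lyn, Syk, Btk, Blnk, Plcg2, Prkcb and Prkcd were among them. The range was wider among the controls than among the dKO libraries for 22 of the 33 genes (66.7%, beside 68.7% of all genes tested). Control 2 and control 4 both lay above control 1 and control 3 for 12 of the 33 genes (36.4%, beside 24% of all genes tested), among them Cd79a, Ptprc, Btk, Pik3ap1, Vav3, Rasgrp3 and Ptpn6. They both lay below for 3 of the 33 genes, Dapp1, Pik3cd and Cbl (9.09%, beside 21.1% of all genes tested). Without control 2 and control 4 the median log2 fold change of the 33 genes was 0.18, beside 0.035 over all genes tested in that fit, with 23 positive and 10 negative. None passed the threshold in that fit, where 0.499% of all genes did. At an unadjusted p under 0.05 it had 5 of the 33 genes, Dok3, Sos1, Pik3r1, Vav3 and Pik3ap1, all higher (15.2%, beside 14.2% of all genes tested in either direction). Of the 11821 genes tested in that fit, 858 were higher and 817 lower at that threshold.

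**Figure D5:**
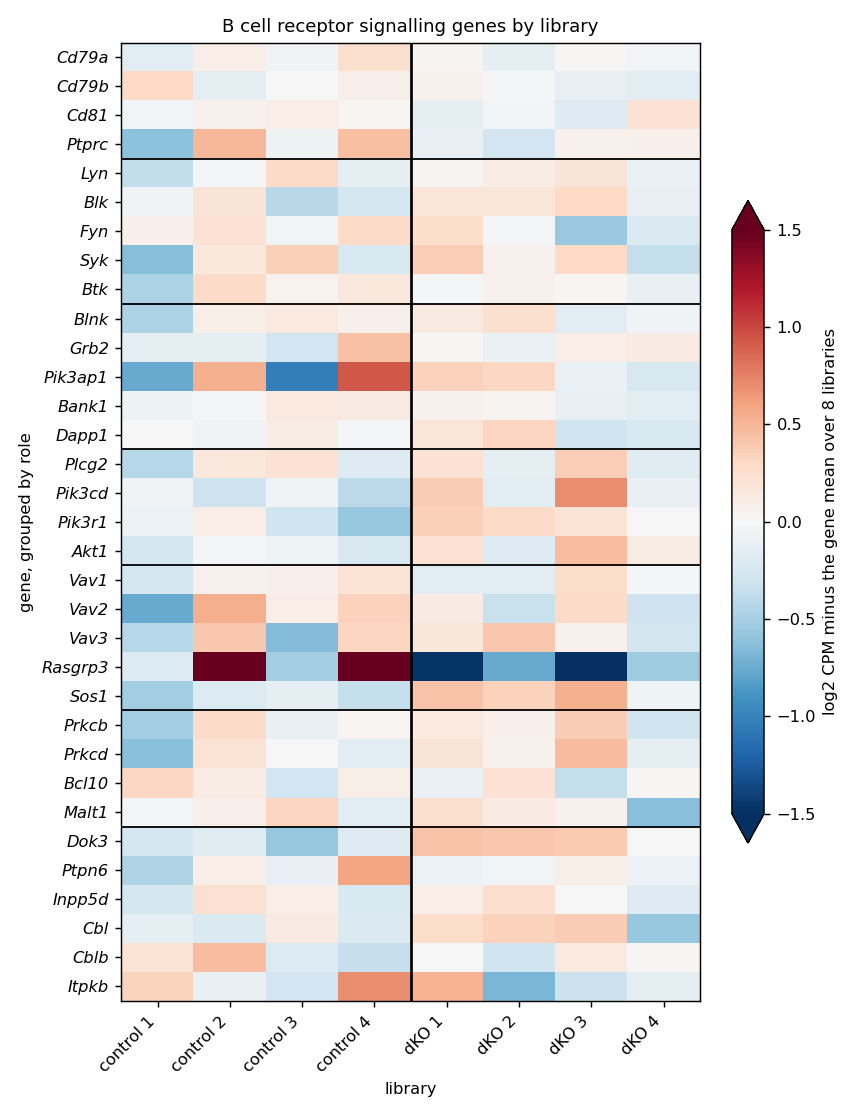
Log2 CPM of each receptor signalling gene in each library, minus the gene's mean over the 8 libraries, grouped by role; colours end at 1.5 either way. Control 1 is the lowest library for Syk, Btk, Blnk, Prkcb and Prkcd, and Rasgrp3 is high in control 2 and control 4.

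The 9 receptor signalling genes with a seed match had a median log2 fold change of 0.074 (6 positive, 3 negative) and the 24 without one −0.040. Without control 2 and control 4 these medians were 0.24 and 0.17. Over all genes tested with an annotated 3′ UTR the medians were 0.019 with and −0.037 without a match, and 0.095 and 0.0077 without control 2 and control 4. Sos1, with 2 matches, and Pik3r1, with 1 match followed by an A, were among the highest estimates, while Rasgrp3, with 1 match, had the lowest.

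Further genes of the pathway were taken from a separate list of 85 genes, of which 82 were tested. None passed an adjusted p under 0.05 in edgeR, 3 were higher and 3 lower at an unadjusted p under 0.05 (7.32%, beside 10.8% of all genes tested), and the median log2 fold change was −0.011. Of the 13 coreceptor and inhibitory receptor genes on that list 6 had positive and 7 negative estimates, with a median of −0.096. DESeq2 called Pirb and Cd5, where it called 2.73% of all genes, and limma voom called Cd5 and Ptpn22, where it called 2.26%. The groups did not overlap for 5 of the 82 genes (6.1%, beside 6.96% of all genes tested). Pirb, an inhibitory receptor that binds MHC class I, was at 13.4, 10.1, 15.8 and 19.2 CPM in the controls and at 26.0, 23.0, 32.3 and 22.4 CPM in the dKO libraries, without overlap (log2 fold change 0.83 ± 0.21, SE, edgeR adjusted p = 0.15). Cd5, the surface marker of B-1a cells that dampens their receptor signal, averaged 6.29 ± 2.12 CPM over the controls and 12.2 ± 1.66 over the dKO libraries (SD, n = 4), without overlap (log2 fold change 0.96 ± 0.25, adjusted p = 0.15). Ptpn22, a phosphatase that switches off Src-family kinases and SYK or ZAP70, was at 71.0, 38.6, 106.5 and 38.4 CPM in the controls and at 126.6, 128.4, 133.1 and 109.8 CPM in the dKO libraries. The groups did not overlap, with control 3 close to dKO 4, and the log2 fold change was 0.97 ± 0.30 (adjusted p = 0.24) with all libraries and 0.49 ± 0.19 (adjusted p = 0.28) without control 2 and control 4.

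Siglecg, a sialic acid-binding inhibitory receptor of B-1a cells, came next among the higher genes, at 178.4 ± 38.9 against 258.7 ± 93.3 CPM (control against dKO, SD, n = 4 each, 0.54 ± 0.27, edgeR adjusted p = 0.53), with dKO 4 below every control. On the lower side, Nck1, an adaptor to the cytoskeleton, averaged 42.5 ± 7.32 CPM over the controls and 28.6 ± 4.61 over the dKO libraries (SD), a log2 fold change of −0.57 ± 0.17 (adjusted p = 0.23). Dok2, a relative of Dok3 that is used more by T and myeloid cells, was at 23.8 ± 9.65 against 14.3 ± 4.63 CPM (−0.73 ± 0.30, adjusted p = 0.41). Cr2, a complement receptor of B cells and itself a follicular B-2 marker, had a log2 fold change of −1.47 ± 0.65 (adjusted p = 0.46), which was 0.30 ± 0.40 (adjusted p = 0.78) without control 2 and control 4. Nfkbib, an inhibitor of NF-kB, was at 136.9 ± 14.7 against 114.8 ± 8.11 CPM (−0.25 ± 0.14, adjusted p = 0.55), narrowly without overlap. Of the 18 listed RAS, RAC and MAPK genes none had an unadjusted p under 0.05. Nras alone among them did not overlap between groups, at 56.4 ± 2.49 against 65.8 ± 0.87 CPM (0.22 ± 0.12, adjusted p = 0.55).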

How the data were processed

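The files hold the authors' raw counts per gene, unscaled, with a column per library. Trimmomatic, STAR and featureCounts ran on GRCm39, per the submitters' processing notes. Not given in the sources used here are tool versions, annotation and strandedness. Columns were matched to libraries by the codes in the labels, and 3 further columns were not used. Between 72.7% and 77.2% of the counts below 20 in a library were even, so the fit was repeated after halving them. The exons of Cd81, Lyn, Ptpn6 and Itpkb overlap a gene on the opposite strand over 0.631% to 6.96% of their length (GENCODE M21), and such reads may be shared.

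After filterByExpr (11363 genes left) and TMM scaling, genotype was tested in R 4.3.3 by edgeR 4.0.16 (robust quasi-likelihood F test), with Benjamini-Hochberg adjustment over every gene tested. Each SE is the log2 fold change divided by the square root of F, and 95% intervals use the fit's degrees of freedom. Log2 CPM carried a prior count of 2. The procedure was tested on simulated counts, drawn independently for each library around a common mean per gene, apart from genes given a set change. Such counts lack differences shared by control 2 and control 4, so that test does not cover them. As alternatives, the scaling (RLE, upper quartile), the tool (DESeq2 1.42.0, limma 3.58.1 voom with quality weights), the filter (none, or over 5 CPM in 4 or more libraries), the terms (replicate block, sex) and the libraries (each left out, and control 2 with control 4) were varied 1 at a time.

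Each group held 4 mice, per the series text. Libraries of a group differed far beyond counting noise (chi-square over its degrees of freedom 31.3 to 321.3), so none was a repeat run of another's library. This check cannot show that each library came from a different mouse. The genes and lists were chosen with earlier results of these data known. Among the 33 genes, every library's value is given for Cd79a, Cd79b, Syk, Btk, Blnk and Plcg2, for genes with an unadjusted p under 0.05 or without overlap between groups, and for the smallest p in each role. Pik3ap1 was added after its values were seen. Of the separate pathway list, up to 4 genes per direction with the smallest p are named, and Nras as the remaining gene without overlap between groups.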

Additional observations from a re-analysis of the deposited data

Results flagged for a closer look

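In a group of 4 libraries a value was marked when its gap to the nearest other library took up more of the group's range than Dixon's 95% critical value allows, which chance does in about 1 group in 20. Of 66 groups, 1 per gene and genotype, 4 were marked. Blnk was at 177.8 CPM in control 1, where the other controls lay between 259.8 and 272.4 CPM. Grb2 was at 298.0 CPM in control 4, above 179.4 to 199.3 CPM in the other controls. Dok3 was at 89.8 CPM in dKO 4, below 117.5 to 120.5 CPM in the other dKO libraries. Cbl was at 5.28 CPM in dKO 4, below 9.54 to 10.2 CPM in the other dKO libraries.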

How the results depend on the processing

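No receptor signalling gene and no gene of the separate pathway list was called in edgeR under RLE or upper quartile scaling, without a filter, with the stricter filter, on halved counts, with a replicate block, with a sex term read from Xist and Y-linked genes, with any 1 library left out, or without control 2 and control 4. DESeq2 called 2 of the 33 genes and limma voom 1, and each called 2 of the other pathway genes, where they called 2.73% and 2.26% of all genes. The cause of that difference was not tested. Pik3ap1 and Itpkb were not tested under the stricter filter. Over all genes edgeR called 10, but 40 without a filter, 18, 30 and 98 without control 2, control 3 and control 1, 59 without control 2 and control 4 together, and 4 without any 1 of dKO 2, dKO 3 and dKO 4. Same-numbered libraries showed no consistent likeness (correlations of their deviations −0.0089, −0.071, 0.061 and 0.15, beside −0.18 to 0.17 for the other pairs). With so few libraries these correlations cannot exclude a batch shared by same-numbered libraries. The replicate block called 9 genes, none among the 33, with a median log2 fold change of 0.065 for the 33.

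Dok3 kept a log2 fold change of 0.53 to 0.73 and Sos1 of 0.56 to 0.73 under every alternative run, and Rasgrp3 stayed negative in all of them. Estimates close to 0 changed sign. Without control 2 and control 4 they were 0.18 for Btk, 0.079 for Cd79a, −0.027 for Dapp1, 1.02 for Pik3ap1, 0.25 for Ptpn6, 0.26 for Ptprc, 0.078 for Vav1 and 0.24 for Vav2. With limma voom they were 0.069 for Cblb, −0.052 for Grb2, 0.079 for Malt1 and 0.081 for Pik3ap1. The sex term gave 0.057 for Btk and 0.18 for Pik3ap1, and the replicate block −0.0059 for Dapp1 and 0.16 for Pik3ap1. With 1 library left out, estimates ranged from −0.047 to 0.13 for Blnk, −0.16 to 0.056 for Btk, −0.21 to 0.074 for Cblb, −0.12 to 0.0065 for Cd79a, −0.10 to 0.11 for Dapp1, −0.046 to 0.22 for Grb2, −0.18 to 0.071 for Malt1, −0.30 to 0.35 for Pik3ap1, −0.24 to 0.11 for Ptpn6, −0.15 to 0.024 for Vav1 and −0.031 to 0.30 for Vav3. The cause of these changes of sign was not tested. With 4 libraries per group the 95% intervals give the precision of each difference.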
